A study of Mus musculus with 14 samples.

Results

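The libraries of this data set carry column codes that begin with either C1 or C2. The comparison described here sets the 8 libraries whose code begins with C1 against the 6 whose code begins with C2, which together are all 14 libraries of the series. C1 held 4 wild-type (wt) and 4 mCAT libraries and C2 held 3 of each, so genotype was balanced within both code series and entered the model as a covariate. The labels do not explain the prefix. It is treated as an unexplained cohort difference in macrophage state, and date, operator, host and sequencing lane cannot be told apart within it.

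All libraries were made from monocyte-derived macrophages of the central nervous system (CNS) in mice with experimental autoimmune encephalomyelitis (EAE), an autoimmune inflammation of the CNS used to model multiple sclerosis. Per the labels, lethally irradiated hosts had received an even mixture of wt bone marrow, marked by CD45.1, and mCAT bone marrow (CCR2creERT2/+, mcat lsl/wt), marked by CD45.2, and the macrophages were sorted by that donor marker. Every sample, wt included, is labelled as treated with tamoxifen, so no library of either code series is free of it. In mCAT cells a Cre recombinase expressed from the Ccr2 locus and activated by tamoxifen switches on a catalase directed to mitochondria; cells that do not express Ccr2 at the time of tamoxifen do not recombine. The labels used here give no strain, age or CD45 allele for the hosts, which keep radiation-resistant cells such as microglia. Some codes share a stem (C1_2, C2_4 and so on), which then holds a wt and an mCAT library. C1 had 5 stems, of which C1_1 (wt) and C1_4 (mCAT) had 1 library each, and C2 had 3 stems with both genotypes. That the partners of a stem came from 1 host is not stated in the labels.

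Monocytes that enter the inflamed CNS begin as inflammatory cells, with inducible nitric oxide synthase and interferon-induced genes. As they mature they take on the complement C1q chains, the lipid carrier apolipoprotein E, the lipid receptor TREM2 and a full lysosomal machinery, which is used to clear myelin debris. A separate layer is the rapid response to stimulation: immediate early genes are transcribed within minutes, and NF-kappaB then drives both cytokines such as tumour necrosis factor and the inhibitors that switch NF-kappaB off again.

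The defining macrophage markers were high in every library. Adgre1, which encodes F4/80, lay between 5486 and 32527 normalised counts, and Itgam, the integrin alpha M chain, between 9431 and 31393. A normalised count here is the read count scaled between libraries, recovered from the deposited log2-scale values. Estimated depth, in megareads (M reads), was 27.6 to 46.9 in C1 and 16.7 to 46.8 M in C2, where only C2_4 wt was below 38.6 M. The number of genes above the lowest value did not separate the series (15900 in C1 and 15460 in C2 on average over stems, exact permutation test over 5 and 3 stems, 2-sided p = 0.143, where the smallest possible p is 0.0357). Principal component 1 held 34.3% of the variance. It ran from -46.43 to 7.61 in C1 and from -7 to 35.9 in C2 and did not pass the same test (exact permutation p = 0.107). Both C2_1 libraries, at -5.58 and -7, fell among the C1 libraries, while C2_2 and C2_4 lay at 23.6 or more. C1_1 wt stood apart from all others on components 1 and 2, and counts without it or without C2_1 are given for the lists where they moved most.

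**Figure D1:**
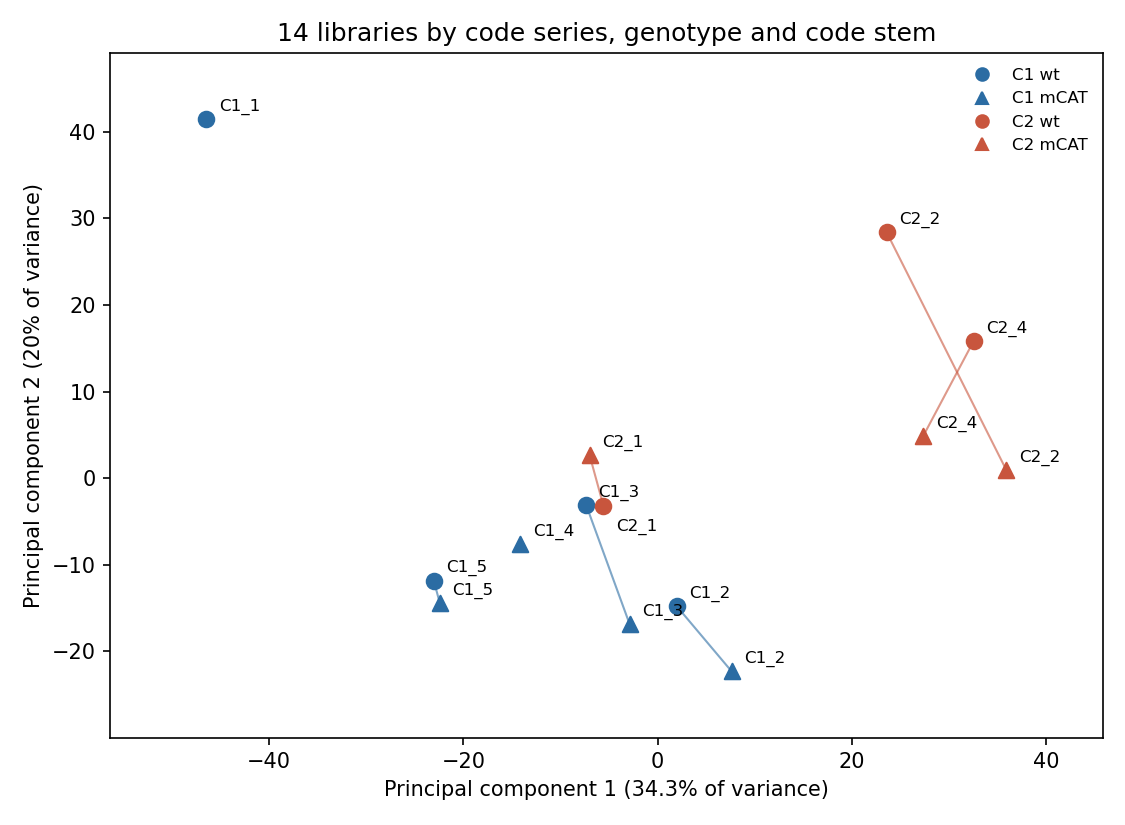
Positions of the 14 libraries on principal components 1 and 2 of the genes tested, with lines joining the libraries of a code stem, colour for code series and shape for genotype. C2_2 and C2_4 lie at the right, C2_1 lies near C1_3, and C1_1 wt is at the upper left.

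Of 12315 genes tested, 331 (2.69%) differed between the code series at an adjusted p under 0.05 with genotype as covariate and stem as a random block. Of these, 197 (1.6%) were higher in C2 and 134 (1.09%) were lower. The size of the called differences ran from 0.47 to 2.76 on the log2 scale with a median of 0.92, and 146 exceeded 1. For 274 genes (2.22%) the range of the 6 C2 libraries did not overlap that of the 8 C1 libraries, and 186 of these were called. Over all genes the median log2 difference was -0.006. The count depended on which stems were present: it was 502 without C1_1 wt, 1172 without stem C2_1, 55 without C2_2 and 70 without C2_4, and 49 genes (34 higher, 15 lower) were called in each of the 20 fits that left out a library or a stem. On stem means, with 5 values against 3, 33 genes were called, all among the 331.

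Some genes of the acute cytokine response were among those with the smallest adjusted p values, and these genes were high in all 3 stems of C2. Tnf, which encodes tumour necrosis factor, ran from 1892 to 3938 normalised counts in C1 (median 3047) and from 12900 to 29776 in C2 (median 24213). No C1 library reached the lowest C2 library, and the means differed 7.35-fold (log2 difference 2.76, SE 0.22, adjusted p = 1.87e-06). Il23a, the p19 chain of interleukin 23, which sustains pathogenic T helper cells in EAE, lay between 39.7 and 100.1 in C1 (median 70.4) and between 402 and 1361 in C2 (median 912). Its groups were likewise apart, by 12.5-fold in the means (log2 2.44, SE 0.23, adjusted p = 1.54e-05). The immediate early transcription factor gene Egr1 ran from 738 to 1769 in C1 (median 1283) and from 4335 to 5438 in C2 (median 5090). Its C2 values were tightly grouped across the 3 stems, at 3.91 times the C1 mean (log2 1.93, SE 0.15, adjusted p = 1.87e-06). Dusp2, a phosphatase that shuts down MAP kinases, lay between 440 and 1363 in C1 and between 2617 and 4704 in C2 (log2 2.01, SE 0.22, adjusted p = 5.86e-05). Cd83, a surface marker of activation, was already abundant in C1 at 9350 to 15782 and reached 26169 to 44093 in C2 (log2 1.53, SE 0.17, adjusted p = 9.88e-05).

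A minority of the members of these lists passed the test. Of 26 inflammatory cytokines and mediators tested, 8 were higher in C2, 3 were lower and 15 were not called, and the list median was 0.03 beside -0.006 for all genes. The other members called higher were Tnfsf9 (4-1BB ligand, a T cell costimulator), which was above all C1 libraries at 5153 to 15929 against 2226 to 3186, Il10, Il12b, Ptgs2, Lif and Csf3. Il10, which encodes a cytokine that restrains inflammation, rose with Tnf, from 30.4 to 92.8 in C1 to 188 to 495 in C2 (log2 1.32, SE 0.21, adjusted p = 0.0018). The most abundant cytokine transcript, Il1b, was not called (log2 -0.30, SE 0.18, adjusted p = 0.41), nor was Il6 (log2 0.46, SE 0.28, adjusted p = 0.44). Of 28 immediate early genes, Egr1 and Dusp2 rose and Fosl1, a Fos family member, fell from 53.7 to 204 in C1 to 3.65 to 62.3 normalised counts in C2, with overlap through C2_1 wt (log2 -1.04, adjusted p = 0.024). Fos itself was not called (log2 0.15, SE 0.17, adjusted p = 0.72).

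Of 26 NF-kappaB subunits and feedback targets, 5 rose and none fell at the threshold. Besides Cd83 these were Nfkbia, Nfkbiz, Nfkbid and Tnfaip3, all of which encode proteins that inhibit or modify NF-kappaB signalling. Nfkbia, the inhibitor IkappaB alpha, ran from 24414 to 39256 in C1 (median 32169) and from 46419 to 96101 in C2 (median 69657), with no overlap (log2 1.14, SE 0.18, adjusted p = 0.002). Nfkbiz, the nuclear cofactor IkappaB zeta, went from between 6665 and 12444 to between 18082 and 27048 (log2 1.33, SE 0.17, adjusted p = 2.6e-04). Tnfaip3, the ubiquitin-editing enzyme A20, went from 6798 to 13959 in C1 to 17737 to 39633 in C2 (log2 1.23, SE 0.18, adjusted p = 0.0012). The subunit genes Nfkb1 (log2 -0.15, SE 0.31, adjusted p = 0.86) and Rela (log2 -0.20, SE 0.13, adjusted p = 0.49) did not pass, and the median of the list was -0.09.

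The promoters of Tnf and of a pair of the NF-kappaB inhibitors that rose are shown so that the consensus can be read beside their values. The windows are the 250 bases before the RefSeq start on GRCm38.p6, written 5′ to 3′ on the gene's strand, and capitals mark matches to the NF-kappaB consensus of 10 letters on either strand, with overlapping matches merged. The Tnf window is chr17:35202008-35202257 (minus strand), that of Nfkbia is chr12:55492648-55492897 (minus strand), and that of Tnfaip3, the farther upstream of its 2 listed starts, is chr10:19015411-19015660 (minus strand).
Tnf: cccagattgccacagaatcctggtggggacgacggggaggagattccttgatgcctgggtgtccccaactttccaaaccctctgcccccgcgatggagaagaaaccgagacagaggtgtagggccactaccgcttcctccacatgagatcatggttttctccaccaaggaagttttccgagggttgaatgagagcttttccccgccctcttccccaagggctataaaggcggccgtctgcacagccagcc
Nfkbia: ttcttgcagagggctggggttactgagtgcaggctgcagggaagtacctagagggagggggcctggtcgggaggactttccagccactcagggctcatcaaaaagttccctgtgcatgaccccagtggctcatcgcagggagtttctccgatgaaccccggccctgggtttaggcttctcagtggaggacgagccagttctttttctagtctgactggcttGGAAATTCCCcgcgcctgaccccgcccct
Tnfaip3: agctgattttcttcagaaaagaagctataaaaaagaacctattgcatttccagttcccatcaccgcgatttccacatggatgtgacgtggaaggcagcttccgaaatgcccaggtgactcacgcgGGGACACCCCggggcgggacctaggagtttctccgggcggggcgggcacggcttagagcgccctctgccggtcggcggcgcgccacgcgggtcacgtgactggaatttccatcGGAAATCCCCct
The consensus was found 29 bases before the Nfkbia start and at 125 and 12 bases before the Tnfaip3 start, and these letters are not in this Tnf window. Among genes tested with a listed window, 519 of 9474 (5.48%) held it. It was in 3 of 7 members of the NF-kappaB and cytokine lists called higher and in 11 of 31 that were not called (42.9% and 35.5%). Members called lower and those without a listed window, such as Nfkbiz and Cd83, are not in these counts. Over all genes with a listed window, it was in 11 of 148 called higher (7.43%) and 5 of 103 called lower (4.85%). A match is a description of the letters, not of binding.

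**Figure D2:**
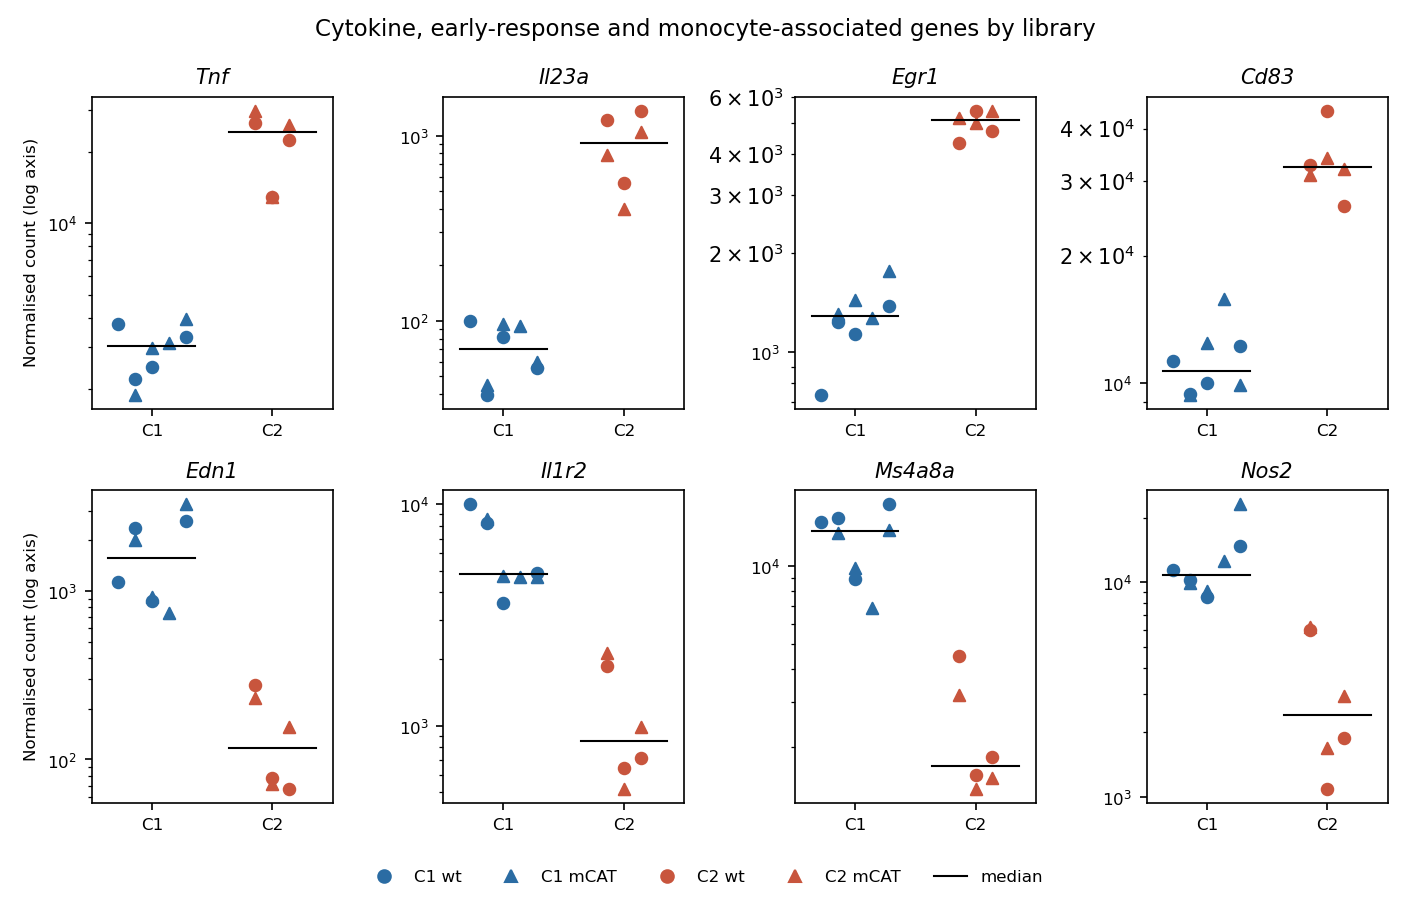
Normalised counts (log axis) of 8 genes in each library, placed by code stem within C1 and C2, with circles for wt, triangles for mCAT and a line at the median. Tnf, Il23a, Egr1 and Cd83 lie higher in all 6 C2 libraries; Edn1, Il1r2, Ms4a8a and Nos2 lie lower, and for these 4 the leftmost C2 stem, C2_1, is nearest to C1.

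The genes lower in C2 were of varied function. Edn1, which encodes the vasoconstrictor endothelin 1, had the largest difference among genes lower in C2. It ran from 738 to 3272 in C1 (median 1571) and from 67.1 to 279 in C2 (median 117). Its groups did not overlap and its C1 mean was 11.8 times the C2 mean (log2 -2.71, SE 0.34, adjusted p = 2.6e-04). Il1r2, the decoy receptor that captures interleukin 1, lay between 3574 and 9990 in C1 and between 520 and 2129 in C2 (log2 -2.43, SE 0.31, adjusted p = 2.71e-04). Ms4a8a, a membrane protein of the MS4A family, lay between 6868 and 17256 in C1 and between 1387 and 4487 in C2 (log2 -2.42, SE 0.26, adjusted p = 5.86e-05). Its relative Ms4a7 moved the other way, as described with the maturation genes. Crispld2, a secreted protein gene, was at 81.7 or more in every C1 library and at 22.7 or less in C2 (log2 -2.32, SE 0.38, adjusted p = 0.0028).

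Nos2, inducible nitric oxide synthase, ran from 8516 to 23021 in C1 (median 10830) and from 1091 to 6182 in C2 (median 2402). No libraries overlapped, but both C2_1 libraries, at 6003 and 6182, lay closer to C1 than the other 4, at 1091 to 2934 (log2 -2.08, SE 0.33, adjusted p = 0.002). Il12a, the p35 chain of interleukin 12, which polarises T helper 1 cells, fell from 520 to 1438 in C1 to 68.5 to 309 in C2 (log2 -1.83, SE 0.26, adjusted p = 9e-04). Il12b, the p40 chain that interleukin 12 and interleukin 23 share, was higher in C2 (log2 1.09, SE 0.22, adjusted p = 0.010), as was Il23a. Inhba, which encodes the activin A subunit, fell from 49845 to 74074 in C1 to 9150 to 29552 in C2 (log2 -1.60, adjusted p = 0.0013). Sphk1, the kinase that makes sphingosine 1-phosphate, lay at 1163 to 3001 in C1. In C2 it was at 1046 and 1075 in C2_1 and at 121 to 192 in the other 4 libraries (log2 -1.99, SE 0.38, adjusted p = 0.0086), and the call was lost without C2_2 or without C2_4 (adjusted p up to 0.147). Jaml, a junctional adhesion molecule of leukocytes, fell from 2622 to 4392 to 337 to 2144 (log2 -1.91, SE 0.28, adjusted p = 0.001). The tumour suppressor candidate St7 fell from 1685 to 2424 to 513 to 1252 (log2 -1.29, SE 0.18, adjusted p = 8.16e-04).

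Of 25 monocyte genes tested, 1 was called lower and none higher, with 20 below 0 and a list median of -0.44. Without C2_1, 8 were called lower, and without C2_2 or without C2_4 none was. Ly6c2, a surface antigen of classical monocytes, did not differ beyond the spread, at 55633 to 78801 in C1 and 54228 to 99621 in C2 (log2 0.24, SE 0.17, adjusted p = 0.51). Ccr2 itself overlapped widely (log2 -0.36, SE 0.26, adjusted p = 0.53). Il1r2 and Jaml are also expressed by neutrophils, and neutrophil markers were lower in C2 in part: 2 of 12 tested were called (Cxcr2 and Lcn2), with a list median of -0.69. Without C2_2 or without C2_4 none was called, and the calls ended in 14 of 20 leave-outs for Lcn2 and 8 for Cxcr2. The summed level of the neutrophil markers was 32140 to 64047 in C1 and 29759 to 49215 in C2, mostly from Wfdc17, which macrophages also express, and Mmp8, while Ly6g was at most 30.1 in C1 and 7.34 in C2. Cxcr2 reached 11.2 to 50.7 in C1 and 0 to 9.37 in C2. The part of such cells in the results was not tested, and in these bulk libraries fewer cells of a type and less RNA per cell cannot be told apart.

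Genes of macrophage maturation were also higher in C2. Of 28 genes of macrophage maturation and complement C1q, 9 were higher in C2, none was lower at the threshold, and the median was 0.62. Without C2_1, 13 were higher and 2 lower, and without C2_2 or without C2_4, 4 were higher. The mean deviation of this list was below 0 in all 8 C1 libraries (-0.64 to -0.06) and above 0 in all 6 of C2 (0.19 to 0.48). Ms4a7, a marker of tissue macrophages, ran from 2400 to 5187 in C1 (median 3999) and from 8985 to 20777 in C2 (median 15526). No libraries overlapped, and the means differed 3.80-fold (log2 1.90, SE 0.22, adjusted p = 1.01e-04). The fractalkine receptor gene Cx3cr1, which monocytes turn up as they become resident, lay between 847 and 3493 in C1 and between 5024 and 10741 in C2 (log2 1.96, SE 0.27, adjusted p = 7.63e-04). C1qa, C1qb and C1qc, the 3 chains of complement C1q, rose together by 1.07, 0.94 and 1.08 on the log2 scale (adjusted p = 0.0032, 0.0064 and 0.0097). All 3 calls were lost without C2_2 or without C2_4, with adjusted p up to 0.151. Hpgds, a prostaglandin D synthase, and Cebpa, a myeloid transcription factor, were also called.

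Genes of lipid handling were higher in C2 as well. Any members shared with the maturation list were not removed, so these lists and that list are not separate evidence. Of 30 genes of lipid uptake, storage and efflux, 8 were higher and none lower (median 0.39), and of 19 lipid-associated macrophage genes 7 were higher and none lower (median 0.83); the lists share members. Without C2_1 the numbers called higher were 12 and 12, without C2_2 they were 3 and 3, and without C2_4 they were 6 and 4. Apoe ran from 155390 to 537390 in C1 (median 354110) and from 652330 to 1619800 in C2 (median 1428100). Its share of all summed counts was 0.474 to 1.44% in C1 and 1.66 to 3.94% in C2, without overlap (log2 1.89, SE 0.28, adjusted p = 0.0011). Trem2, the receptor for lipids and apolipoproteins, lay between 5087 and 11478 in C1 and between 13413 and 35870 in C2 (log2 1.53, SE 0.24, adjusted p = 0.0018). C2_1 was the lowest C2 stem for both genes. The fatty acid binding protein genes Fabp4, Fabp3 and Fabp5 rose by 2.14, 1.07 and 1.36 on the log2 scale (adjusted p = 0.0013, 0.0013 and 0.0048). Fabp4 was at 31.8 to 180 in C1, at 230.5 and 358 in C2_1 and at 899 to 1653 in C2_2 and C2_4. The phospholipid transfer protein Pltp, the apolipoproteins Apoc1 and Apoc2, and the cholesterol exporter Abca1 were also called. Gpnmb, Spp1 and Lpl, other genes of lipid-associated macrophages, were above the C1 mean but not called (log2 1.54, 0.85 and 1.12, adjusted p = 0.053, 0.138 and 0.083).

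Igf1, insulin-like growth factor 1, which macrophages release during tissue repair, lay at 9.28 to 55.9 in C1 (median 32.8). It was at 128 and 144 in C2_1 and at 573 to 773 in the other C2 libraries, and all were above C1 (log2 2.13, SE 0.30, adjusted p = 7.63e-04). Timp2, an inhibitor of matrix metalloproteinases, went from 107 to 323 to 525 to 1986 (log2 1.99, SE 0.28, adjusted p = 7.63e-04). Gdf15, a stress-induced cytokine of the TGF-beta family, went from 121 to 382 to 459 to 1318 (log2 1.64, SE 0.25, adjusted p = 0.0015). Of 22 genes of alternative activation and repair, Igf1, Il10 and Trem2 were higher and Ccl17 was lower. Arg1, the arginase of that list, was not called (log2 -0.92, SE 0.30, adjusted p = 0.11), so the list had no common direction (median -0.16).

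**Figure D3:**
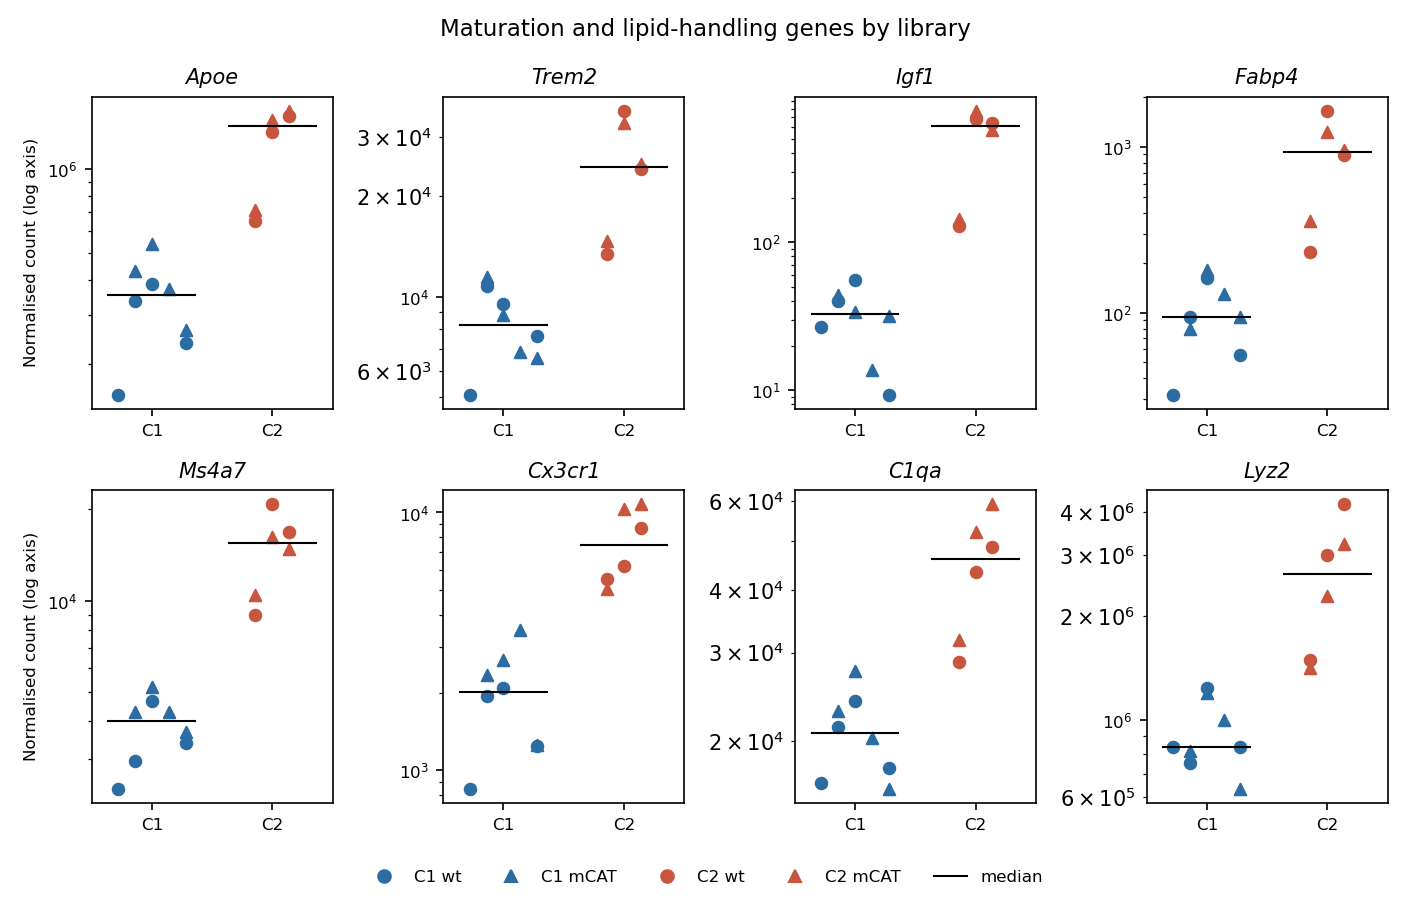
Normalised counts (log axis) of 8 maturation and lipid-handling genes in each library, placed by code stem within C1 and C2, with circles for wt, triangles for mCAT and a line at the median. All 6 C2 libraries lie above all 8 C1 libraries for each gene, and for each the leftmost C2 stem, C2_1, has the lowest C2 values.

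Lyz2, lysozyme, was the most abundant macrophage marker. It ran from 633460 to 1237700 in C1 and from 1413900 to 4197800 in C2 (log2 1.43, SE 0.25, adjusted p = 0.0044), and it made up 1.7 to 3.59% of summed counts in C1 and 3.7 to 9.68% in C2. This call was lost without stem C2_2 or C2_4 and with quantile normalisation. Of 14 macrophage markers, 5 were higher (Ms4a7, Lyz2 and the C1q genes). Adgre1 (log2 0.88, adjusted p = 0.098) and Itgam (log2 0.08, adjusted p = 0.91) were not. Of 41 lysosomal genes, Cd63, Ctsd, Hexa and Glb1 were higher and none was lower, with 35 above 0 and a median of 0.38. Ctsd, the protease cathepsin D, lay at 114520 in C1_1 wt, at 247270 to 464450 in the other C1 libraries and at 392290 to 1021800 in C2 (log2 1.25, SE 0.32, adjusted p = 0.040). The number called higher was 14 without C2_1, 7 without C1_1 wt, and 0 without C2_2 or without C2_4.

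Some markers of microglia, the resident macrophages of the CNS that survive irradiation, also differed. Of 12 tested, 3 were higher in C2 and none lower, with a median of 0.57. Olfml3, a secreted olfactomedin protein, ran from 1138 to 3050 in C1 (median 1671) and from 4336 to 11493 in C2 (median 9336.5). It did not overlap (log2 2.12, SE 0.26, adjusted p = 2.34e-04). The file's Fcrl2, listed as a microglia marker under its older name Fcrls, went from 424 to 1246 to 2008 to 3421 (log2 1.76, SE 0.25, adjusted p = 8.98e-04), and Gpr34, a lysophospholipid receptor, from 35.98 to 150.2 to 163 to 571 (log2 1.31, SE 0.19, adjusted p = 0.001). Tmem119, a defining marker, lay at 550.5 to 2008 in C1 and 2204 to 3500.3 in C2, without overlap but not called (log2 0.80, adjusted p = 0.10). Sall1, the transcription factor that specifies microglia, stayed at 1.58 to 34.4 in C1 and 8.27 to 36.2 in C2. The summed level of the 12 genes was 23618 to 51010 in C1 and 47779 to 91026 in C2. The part of host microglia in the maturation and lipid results was not tested.

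Adhesion, chemokine and matrix genes changed in both directions. Of 31 adhesion and migration receptors, 5 were higher (Cx3cr1, Itgb5, Itga6, Cxcr4 and S1pr1) and 3 lower, among them Ccr1 and Fpr2. Itgb5, an integrin chain that also takes part in the uptake of dying cells, lay at 1750 to 2619 in C1 and 3839 to 7391 in C2 (log2 1.15, SE 0.16, adjusted p = 8.16e-04). Of 25 efferocytosis, scavenger and Fc receptor genes, it rose with the collectin Colec12 and the bridging protein Mfge8, and none fell at the threshold. The number called higher was 1 without C2_2 or without C2_4, and without C2_1 2 of the list were called lower. The call of Mfge8 ended in 14 of 20 leave-outs, and that of Colec12 without C2_2 or without C2_4. Of 22 chemokines, Cxcl1 and Cxcl14 were higher and Ccl17, Ccl6 and Cxcl3 lower. Ccl6 was at 55263 to 130120 in C1, at 57564 and 64420 in C2_1 and at 29572 to 38285 in the other C2 libraries (log2 -1.05, SE 0.24, adjusted p = 0.022), and 8 of 20 leave-outs ended its call. Of 23 matrix proteases and inhibitors, Timp2, Mmp2 and Plau were higher and Mmp19 and Plaur lower. Plaur, the urokinase receptor, fell while Plau, its ligand, rose (log2 -0.90 and 0.87, adjusted p = 0.013 and 0.033).

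The interferon lists divided C2 itself. Of 44 type I interferon response genes, none was called by limma (27 had an unadjusted p under 0.05, and the smallest adjusted p was 0.0575), although 43 had a log2 difference below 0 and the median was -0.71. The mean deviation of the list was 0.59 and 0.60 in the C2_1 libraries, within the C1 range of -0.15 to 0.81, and -0.93 to -0.75 in the libraries of C2_2 and C2_4. For 31 of the 44 genes (70.5%) the 4 libraries of C2_2 and C2_4 lay below all 8 of C1, beside 5.38% of all genes tested, while both C2_1 libraries lay below C1 for 1. Ifit3, an interferon-induced antiviral gene, was at 4228 to 12366 in C1, 13597 and 12751 in C2_1 and 1994 to 2741 in the rest. Irf7, the transcription factor that amplifies the interferon response, was at 15866 to 30643 in C1, 29810 and 27484 in C2_1 and 6455 to 11400 in the rest. Ms4a4c, the most abundant gene of the list, was at 17105 to 42613 in C1, 35842 and 35797 in C2_1 and 6960 to 7997 in the rest, and was not called (adjusted p = 0.18). Without stem C2_1, 34 of the 44 genes were lower in C2, at a background of 571 lower calls among 12315 genes. That split of C2 was seen in these values and is not a group of the labels.

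Of 34 interferon gamma response genes, 4 were lower in C2 (Nos2, Gbp4, Tgtp1 and Ifi47), none was higher and the median was -0.65. Gbp4, a guanylate-binding GTPase that acts against intracellular pathogens, lay at 2550 to 7414 in C1, 5015 and 3510 in C2_1 and 943 to 1508 in the rest (log2 -1.45, SE 0.36, adjusted p = 0.035). Its groups overlapped through C2_1, and 14 of 20 leave-outs ended the call, as they did for Ifi47 (13 for Tgtp1). Without C2_1, 21 of the 34 were lower. The chemokine genes Cxcl9 and Cxcl10, both induced by interferon gamma, were not called (log2 -0.19 and 0.29, adjusted p = 0.75 and 0.67). None of 13 MHC class II presentation genes or 17 MHC class I genes was called, with unadjusted p under 0.05 for 3 and 7. Without C2_1, 6 of the class I genes were lower.

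**Figure D4:**
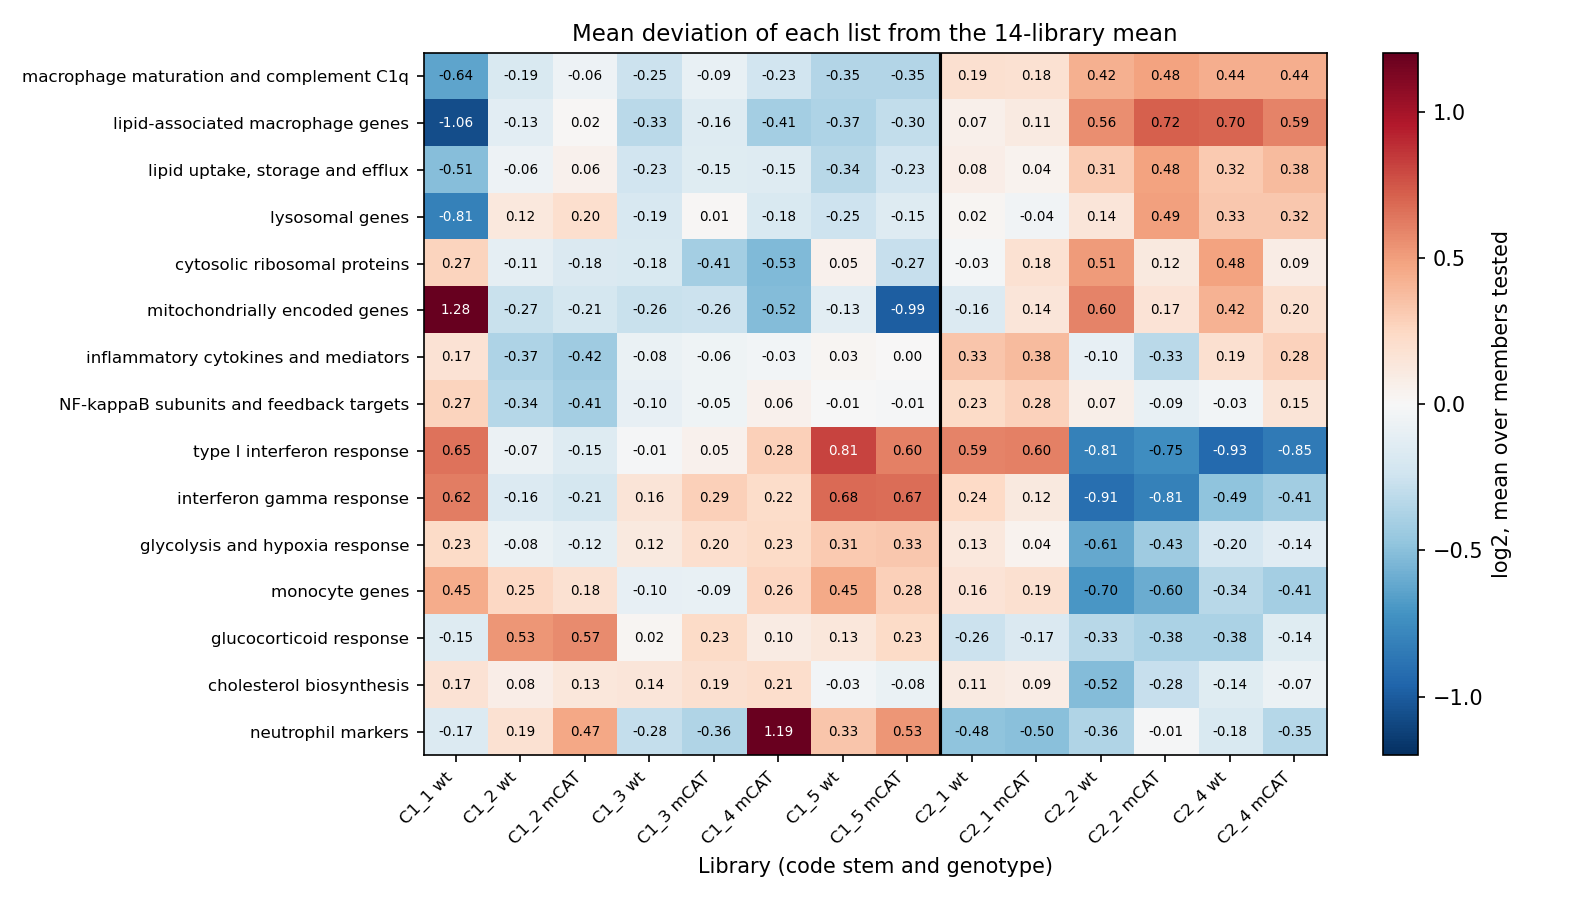
Mean log2 deviation from the 14-library mean over the members tested of 15 gene lists, by library, with a line between C1 (left) and C2 (right). The maturation list is below 0 in all C1 and above 0 in all C2 libraries, whereas both interferon lists are above 0 in C2_1 and below 0 in C2_2 and C2_4.

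Of 39 glycolysis and hypoxia response genes, Ndrg1, Pfkp and Egln3 were lower, none was higher, 34 were below 0 and the median was -0.36. Ndrg1, a hypoxia-induced stress gene, lay at 4832 to 10333 in C1 and 2058 to 4332 in C2 (log2 -1.16, SE 0.21, adjusted p = 0.0059). Pfkp, a phosphofructokinase of glycolysis, lay at 10583 to 31335 in C1 and 4243 to 13419 in C2, with overlap (log2 -1.38, SE 0.29, adjusted p = 0.014). Without C2_1, 15 genes of that list were lower, and without C2_2 or without C2_4 none was called. All 78 cytosolic ribosomal protein genes were above 0 (median 0.39), and 50 had an unadjusted p under 0.05, of which Rps28 and Rps29 passed after adjustment. The number called higher was 23 without C1_1 wt, 28 without C2_1, and 0 without C2_2 or without C2_4. In 5 of the 6 stems with both genotypes the wt library had the higher mean deviation of this list, by the most in C2_2 and C2_4 (0.51 and 0.48 in wt, 0.12 and 0.09 in mCAT), and in C2_1 the mCAT library did (-0.026 in wt, 0.183 in mCAT). The 12 mitochondrially encoded genes tested were also all above 0 (median 0.36) with none called and no unadjusted p under 0.05. The mean deviation in C1_1 wt, 1.28, exceeded that of every C2 library, and without it 4 of the 12 were called higher and the median was 0.54. Of 77 nuclear-encoded oxidative phosphorylation genes none was called (10 with an unadjusted p under 0.05, median 0.09). Among 22 genes of peroxide and superoxide removal, Prdx4, Sod1 and Gpx3 were higher, by 0.70, 0.68 and 1.64 (adjusted p = 0.0125, 0.0219 and 0.0424). None of the 3 was called without C2_2 or without C2_4, and 14 of 20 leave-outs ended the call of Gpx3. Cat, the catalase gene, was not called (log2 0.50, SE 0.20, adjusted p = 0.21). Whether reads of the transgene count towards Cat was not tested.

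Of 18 circadian clock genes, 4 were higher in C2 and none lower: Dbp, Bhlhe41, Tef and Nr1d2 (log2 0.78, 1.60, 0.86 and 1.19, adjusted p = 0.015 to 0.026). Dbp, an output gene of the clock, lay at 31.8 to 46.4 in C1 and 77.2 to 221 in C2, and none of the 4 was called without C2_2 or without C2_4. Without C2_1, 6 genes of the list were higher and 1 lower. Of 38 cell cycle genes none was called (3 with an unadjusted p under 0.05), and Hmgb2, the most abundant, was at -0.01 (SE 0.15). Of 19 glucocorticoid response genes only Il1r2 was called, with a median of -0.40. No member was called among heat shock proteins, the tricarboxylic acid cycle and fatty acid oxidation, or inflammasome genes, whose medians lay between -0.09 and 0.04. A few calls fell in other lists: Xbp1, Slc7a11, Pmvk, Traf6, Tlr4, Mdm2 and Slc39a2 were lower, and Slamf9 and Cd48 higher. These calls ended in 14 of 20 leave-outs for Tlr4 and Slc39a2, 13 for Mdm2, 12 for Cd48 and 8 for Xbp1. They ended in 3 for Traf6, 2 for Slc7a11 and Pmvk and 0 for Slamf9. Among the markers of other cell types, Blnk of the B cell list was higher and Slc1a2, a glutamate transporter listed for astrocytes, lower. Slc1a2 lay at 810 to 1544 in C1 and 162 to 507 in C2 (log2 -1.45, SE 0.19, adjusted p = 5.66e-04), while the other 8 astrocyte markers tested did not pass. No T cell, dendritic cell, natural killer cell, erythroid, neuron, oligodendrocyte or endothelial marker was called.

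**Figure D5:**
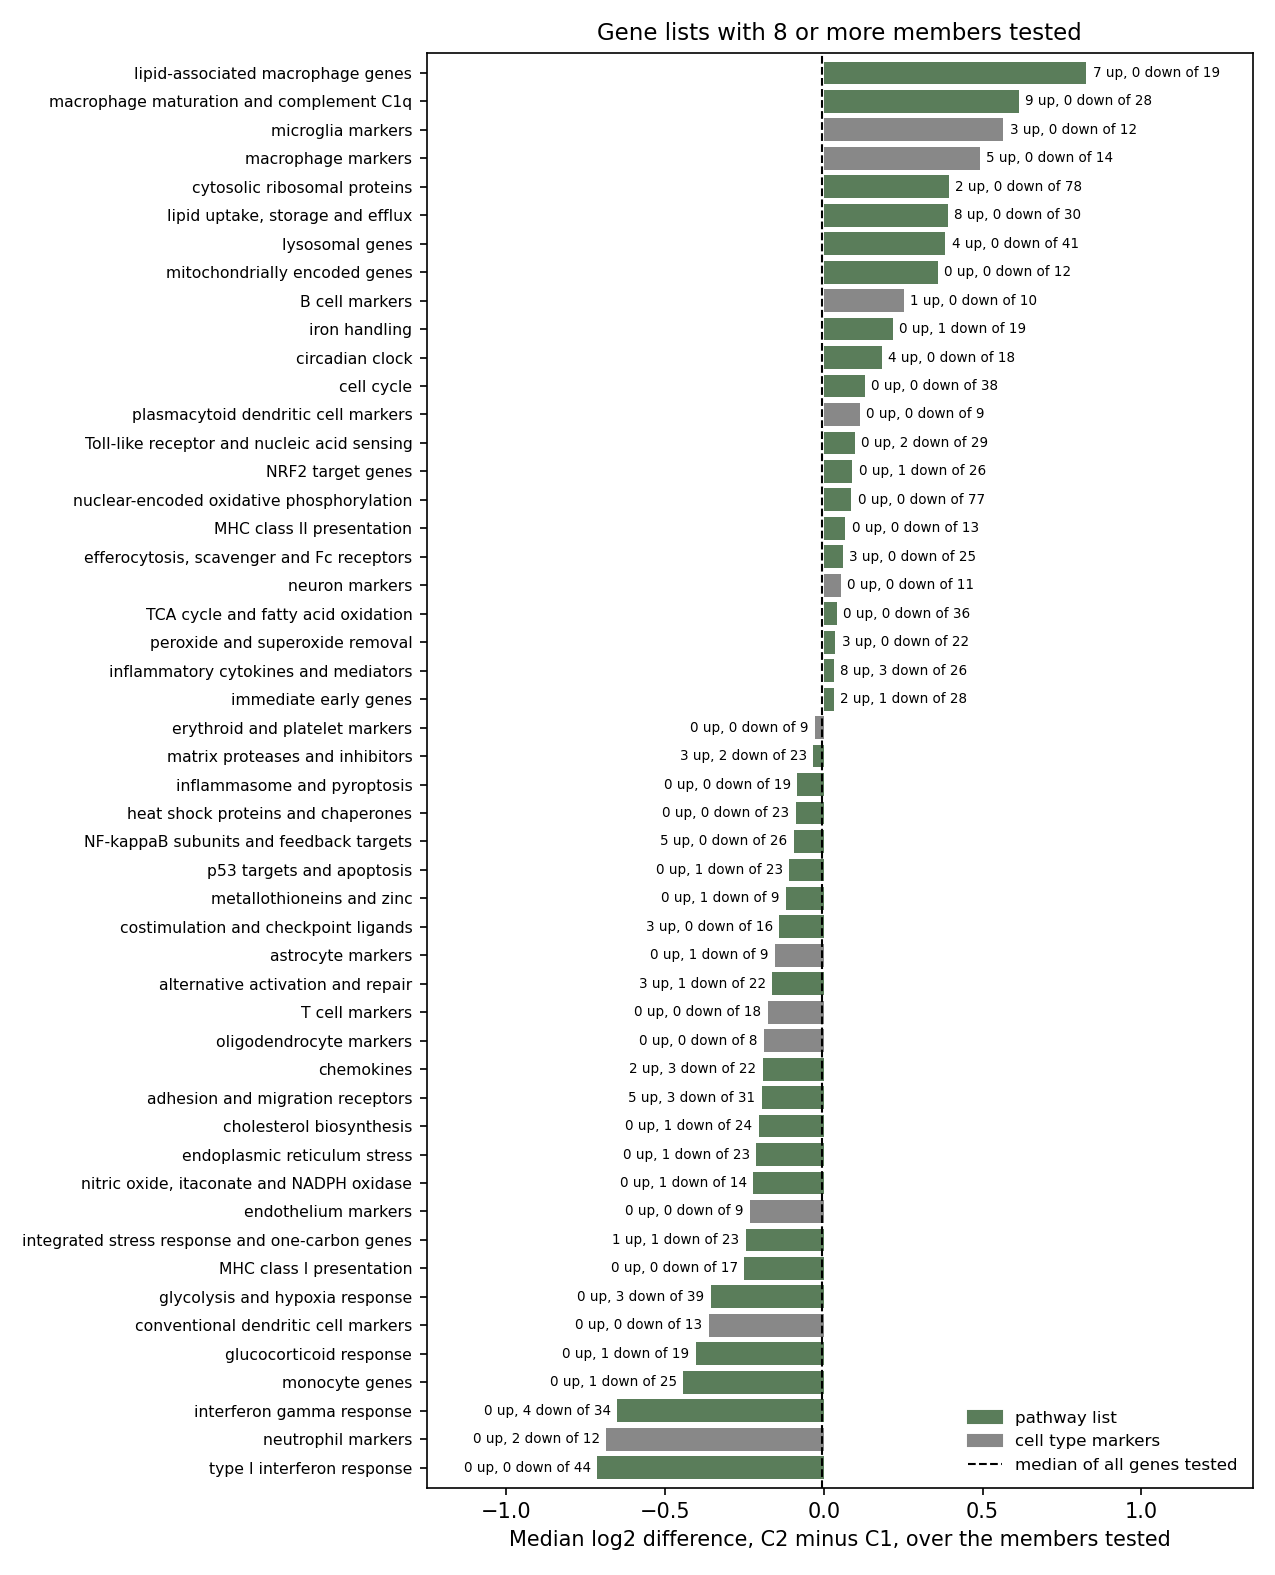
Median log2 difference (C2 minus C1) over the members tested of each list with 8 or more, with the numbers of members called higher (up) and lower (down) and a dashed line at the median of all genes tested, -0.006. Lipid-associated macrophage and maturation genes are at the top, and type I interferon genes, of which none was called, at the bottom.

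The series difference had the same sign in wt and mCAT libraries for all 331 called genes, which is largely set by their choice in the joint fit. Tested alone, 4 against 3, the wt libraries gave 15 called genes (0.122%; 13 higher, 2 lower) and the mCAT libraries 77 (0.625%; 47 higher, 30 lower), and 13 genes were called in both. Tnf differed by 2.73 in wt and 2.85 in mCAT (adjusted p = 0.0084 and 0.0043), Egr1 by 2.02 and 1.78 (adjusted p = 0.0084 and 9.55e-04), and Il23a by 2.71 and 2.23 (adjusted p = 0.0084 and 0.0095). Without C2_4 wt no gene was called in wt, and without C2_1 mCAT 712 were called in mCAT. The interaction of series and genotype was called for 0 genes (0%) by limma, with 352 at an unadjusted p under 0.05. The smallest p values belonged to Pi4kb, a phosphatidylinositol kinase, and Kbtbd7, a ubiquitin ligase adaptor (interaction 0.93, SE 0.20 and 0.996, SE 0.22, adjusted p = 1 for both).

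The contrast of mCAT with wt gave 26 called genes in C1 and 26 in C2 (0.211% each). Genotype coincided with the CD45 donor marker in every library, so effects of the transgene and of the donor line cannot be told apart here. Chi3l1, a chitinase-like protein, averaged 84354 ± 7968 (SD, n = 4) in wt and 148 ± 117 in mCAT libraries of C1, and 118960 ± 35003 (SD, n = 3) and 125 ± 38.7 in C2. Ctse, the protease cathepsin E, differed by -3.76 in C1 and -3.88 in C2 (mCAT minus wt, log2), and Cep85, a centrosomal protein, by 2.77 and 2.32. Cxcl1, a chemokine that attracts neutrophils, rose with both factors. It was at 171 ± 63.0 in C1 wt (n = 4), 947 ± 279 in C1 mCAT (n = 4), 1413 ± 638 in C2 wt (n = 3) and 6014 ± 1283 in C2 mCAT (n = 3). Its series difference was 2.44 (SE 0.25, adjusted p = 4.92e-05), its genotype difference 1.89 in C1 and 2.08 in C2, and their interaction 0.18 (SE 0.34). Cxcr4, the receptor for CXCL12, was higher in C2 (log2 1.08, SE 0.20, adjusted p = 0.0066) and lower in mCAT, by -1.71 in C1 and -1.80 in C2. Its series call was lost without stem C2_2 (limma, adjusted p = 0.147), on stem means and with no genotype term. H2-Q7 (0.94 and 1.17) and Btg2 (-0.80 and -0.83) had like genotype differences in both series. Those of Ccr2 and Cat did not pass in either.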

How the data were processed

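RNA was sequenced from 14 libraries of polyadenylated RNA made with Smart-seq2, which keeps no strand, so antisense and overlapping genes cannot be separated. Per the submitters' processing notes, FastQC, fastp, Salmon and GRCm39 were used; no version, annotation or filter is given in the sources used here. Values deposited by the authors are on a log2 scale, for a table of 19940 genes, and all libraries share 1 lowest value (5.964), as a variance-stabilising transform of scaled counts would give. Normalised counts were obtained by inverting that form with the constant 62.43. Low counts were near whole reads for 64.2 to 77.3% of values (within 0.15; 30% by chance), so depth is a rough estimate, covers counting error only, and reads were not recovered.

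limma 3.58.1 in R 4.3.3 (statmod 1.5.0) was fitted to the deposited log2 values with code series and genotype as terms and the stem as a random block (correlation 0.459), with trend and robust moderation. Genes with a normalised count of at least 10 in at least 6 libraries were tested, and 2-sided p-values were Benjamini-Hochberg adjusted across the 12315. Differences are C2 minus C1 on that scale, which compresses low genes; means, ranges and folds are of normalised counts. Deviations of stem partners correlated at 0.251 to 0.657, and the labels do not state what the stem stands for. In C1_5 (0.251) and C2_2 (0.293) the partners were not each other's most correlated library of the other genotype. Where libraries were not separate animals, p-values measure only the spread between these samples. On simulated data for these 12315 genes with stem effects, shifts of 1, 2 and 3 were recovered for 68.7%, 97% and 100% of 67, 67 and 66 genes with 17 false calls, against 105 false calls without the block.

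Gene lists are described by counts and medians, with no set test. Named genes were the 8 with the largest difference and the 5 with the smallest adjusted p in each direction, among called genes whose series did not overlap and whose mean normalised count was at least 100, leaving out predicted and Rik genes and pseudogenes; up to 4 called members of each list by adjusted p, or its most abundant member where none was called; the 2 with the smallest interaction p; genes earlier called or followed between genotypes; and, for each cell type list, the most abundant and any called marker. Other genes named were chosen after their values were seen. Members and lists were chosen with earlier results of these data known. Gene symbols are the table's; 36 list entries were matched through Ensembl IDs. Library measures were compared by exact permutation. Promoters came from RefSeq. Some results that the rule would name are not reported here.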

Additional observations from a re-analysis of the deposited data

Results flagged for a closer look

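In each code series, the highest and lowest library was compared with its neighbours for the 119 named genes and 5 library measures, 248 groups in all. In 11 of them 1 library lay apart from the rest by Dixon's criterion; chance gives about 1 in 20.

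C1_1 wt accounted for 5 of these in C1. It was highest for COX1 (413900, next 142500), a mitochondrially encoded subunit of cytochrome oxidase, and for Pmvk (3072, next 1930), an enzyme of cholesterol synthesis. It was lowest for Ctsd (114500, next 247300) and Sirpa (11720, next 19700), and it was at 41.45 on principal component 2, where the next was -3.07. Itga6 was lowest in C1_5 wt (149.1, next 281.3).

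In C2, C2_4 wt had the lowest estimated depth, 16.7 M reads (next 38.6), and the highest B2m (665000, next 481800). C2_1 wt had the highest Hspa8 (233900, next 179000), C2_2 wt the lowest Atp5f1b (26360, next 37180), and C2_1 mCAT the highest Acta2 (634.9, next 126.6), a smooth muscle actin.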

How the results depend on the processing

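Against 331 calls between series (197 higher, 134 lower), 906 (522, 384) were made with no replicate block, all 331 among them, 33 (21, 12) on stem means and 203 (123, 80) with the number of genes above the lowest value as covariate. Filters, quantile normalisation, centring, other pseudocounts, no moderation trend and no genotype term gave 296 to 374. Leaving out a library or stem gave 55 to 1172 calls (39 to 601 higher, 16 to 571 lower), lowest without C2_2 and highest without C2_1. Within wt the 15 calls became 0 (without C2_4 wt) to 169 (without C2_1 wt), and within mCAT the 77 became 8 to 712, and 43 with no filter. The interaction count was 0 under all its alternatives. Over 8 against 6 libraries, with no replicate block, the differences on components 1 and 3 were 31.1 and 13.1, with exact permutation p = 0.00999 and 0.0433, against 0.107 and 0.143 over stems. Among the 119 named genes, none of those called changed sign, and 7 that were not called did: on stem means Hmgb2 0.025 and Hbb-b1 -0.068, Hmgb2 0.039 with quantile normalisation, Hbb-b1 -0.059 with the covariate, and among leave-outs, as the range over all of them, Hmgb2 (-0.094 to 0.099), Hbb-b1 (-0.565 to 0.661), Ptprz1 (-0.283 to 0.083), Snap25 (-0.147 to 0.237), Acta2 (-0.436 to 0.086), Il7r (-0.417 to 0.017) and Aldoc (-0.032 to 0.313). The cause was not tested.

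C2 rests on 3 stems, so 1 stem can end a call, and what the code series stands for is not in the labels. Depth was estimated, not counted.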

Other observations

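The stems of C2 lay at unequal distance from C1 over the called genes. The mean of stem C2_2 was beyond all 8 C1 libraries, in the direction of the call, for 329 of 331 genes, that of C2_4 for 323 and that of C2_1 for 235 (146 of 197 higher and 89 of 134 lower). These counts describe genes chosen with the same libraries. Some called genes were nonetheless as far or farther in C2_1: Tnf was at 26486 and 29776 there, beside 12900 to 25979 in the other C2 libraries, Tnfsf9 at 15630 and 15929 beside 5153 to 11747, and Nfkbia at 96101 and 89867 beside 46419 to 72674.

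After removal of the genotype difference, the median share of variance per gene was 11.4% between series and 59.6% between stems within a series. It was 20.8% between the libraries of a stem. These parts have 1, 6 and 6 degrees of freedom, so the shares cannot be compared directly. Of the Y-linked transcripts listed, none passed the filter for testing: Ddx3y reached 30.9 normalised counts in C1 and 0 in C2, and Uty 11.5 in C1 and 0.832 in C2.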
